A study of Ictidomys tridecemlineatus with 15 samples.

Results

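Cells stop dividing, repair damage or prepare to die through a small set of genes that respond to the tumour suppressor p53 and to other stress signals. The 10 genes described here were chosen by name. They are the CDK inhibitors Cdkn1a and Cdkn1b, the p53 antagonist Mdm2, the cyclins Ccnd1, Ccng1 and Ccng2, the 3 GADD45 genes and Trp53inp1. Their transcription was followed in the liver of female 13-lined ground squirrels (Ictidomys tridecemlineatus) through a bout of torpor. Of the 10 symbols, 7 had a unit in a table of 6324 transcription units: 5 were single-gene units and 2 were units merged with a second gene. Ccnd1, Ccng1 and Trp53inp1 matched no unit by name. The squirrel annotation lists Trp53inp1 as Tp53inp1; this gene is described beside the 7, outside every count of them.

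Global run-on sequencing (GRO-seq) labels RNA made by polymerases that were already engaged when the tissue was frozen. Its reads report engaged polymerases, not the amount of RNA or how fast the polymerases moved in the animal. For torpor the paper proposes that initiation and termination stop while elongation goes on far more slowly. Nuclei of each frozen liver were incubated for 7 min with a labelled nucleotide, warm and in the tube, whatever the body temperature of the animal had been. Summer active (SA) animals were warm and outside the hibernation season. Interbout aroused (IBA) animals had just rewarmed between bouts of torpor. Entrance (Ent) animals were cooling into torpor, and early torpor (ET) and late torpor (LT) animals were cold. LT had 2 libraries and every other state had 3, each made from one animal of a laboratory colony. The labels name implanted temperature recorders and no drug or diet treatment, and ages were not given in the sources used here. Library depth on the units ran from 3713883 to 8884763 reads.

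p53 is a transcription factor that is held at a low level because Mdm2, itself a p53 target, marks it for degradation. Cdkn1a encodes p21 and Cdkn1b encodes p27; both proteins bind and block the cyclin-dependent kinases that carry a cell from G1 into S phase. Cdkn1a is a classical p53 target, whereas Cdkn1b is better known as a target of FoxO factors and of control at the protein level. The GADD45 proteins bind stress kinases and cell cycle proteins, and their genes respond to DNA damage and cytokines. The adult liver is largely quiescent, yet hepatocytes can return to the cell cycle after injury.

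The 7 genes did not move together. Cdkn1b rose about 1.64-fold from the warm states (SA and IBA) to the cold states (ET and LT), and Gadd45g fell about 4.47-fold. The Cdkn1b mean was highest in ET, whose animals came from a season of their own. From IBA to LT alone, Cdkn1b changed by 0.26 ± 0.21 on the log2 scale (SE, adjusted p = 0.33). Gadd45b and Ccng2 passed only the looser threshold, Gadd45b lower and Ccng2 higher in the cold. Cdkn1a was lowest in IBA, and no change of Mdm2 passed either threshold. Counts were fitted in 1 edgeR quasi-likelihood model of the 5 states, with Benjamini-Hochberg adjustment across the 6324 units. Libraries were scaled to their size, so every rise or fall is relative to the other units. A change in total transcription between states, which the study says such scaling hides, cannot be seen here. A unit was called at an adjusted p of 0.001, and counts at 0.05 are given beside it. The study used 0.001 too, but with DESeq2, another count model, and it left out units that overlap multiple genes. Its calls and those here are therefore not alike. With the 5 states compared together, 1 of the 7 genes was called (Cdkn1b), against 25.5% of all units. At 0.05 there were 3 (Cdkn1b, Gadd45g and Gadd45b), against 62% of all units. Between warm and cold, 2 of the 7 were called (Cdkn1b and Gadd45g), against 36.3% of all units, and at 0.05 there were 4, against 64.5%. These shares are near or under the background, so the 7 genes as a group were not called more often than other transcribed units.

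**Figure D1:**
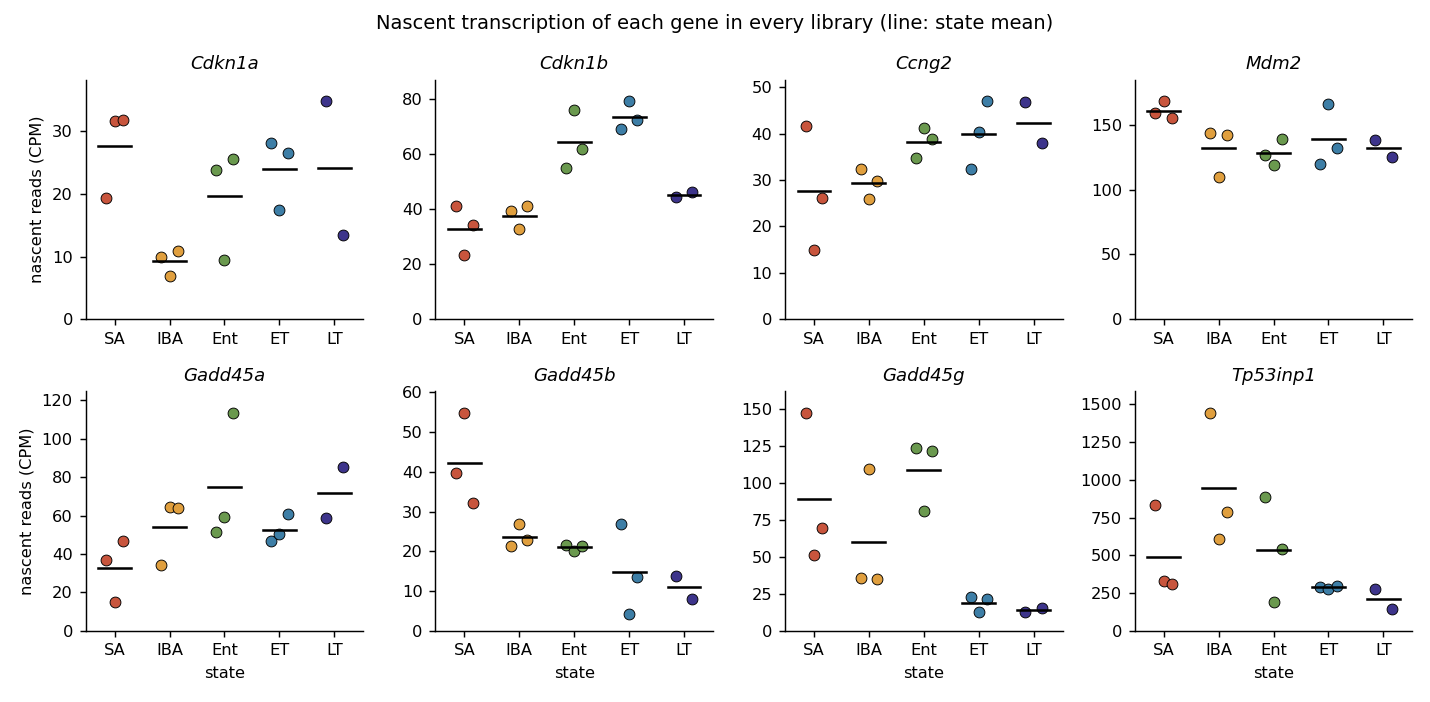
Nascent reads of each gene in CPM (counts scaled to library size, linear axis from 0) for every library, by state; points are libraries and lines are state means. All 5 cold libraries of Gadd45g lie at 22.7 CPM or lower, and all 9 warm and Ent libraries at 35.1 CPM or higher.

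The animals were collected in 3 seasons, and the season followed the state in part. All ET animals came from a season of their own, so that ET cannot be told apart from its season. SA replicate 1, Ent replicates 1 and 2 and both LT animals shared a season, and the other SA and Ent animals shared one with all of IBA. Labelled tissue was checked with marker genes. Hepatocyte markers were present, with 3 of 6 as single-gene units (Ttr, Hnf4a and Cps1). Their summed level was 4551 to 15200 CPM in SA, 3675 to 5943 in IBA, 2373 to 3789 in Ent, 1041 to 2170 in ET and 1172 to 2068 in LT. Of 6 sinusoidal endothelial markers 2 were measured (Pecam1 and Kdr), at 132 to 201 CPM summed in SA, 166 to 184 in IBA, 153 to 186 in Ent, 84.7 to 140 in ET and 73.8 to 91.2 in LT. Markers of macrophages, stellate cells, lymphocytes, erythroid cells and dividing cells had no single-gene unit and give no level. The hepatocyte sum was lower in every cold library than in any warm one, while the endothelial sums of ET and SA overlapped. Gadd45g and Gadd45b were also lower in the cold on average. In Ent the hepatocyte sum and Gadd45b were each already under their SA range, and Gadd45g lay within its own SA range. The part of these sums in the results was not tested. In tissue such as this, fewer cells of a type and less transcription per cell cannot be told apart.

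Cdkn1a (single-gene unit, Itri8:41235665-41242985, plus strand, HiC_Itri_2) encodes p21, the inhibitor through which p53 halts cells in G1. Its level, in reads scaled to the normalized library size (CPM), was 19.3, 31.6 and 31.8 in the SA libraries and 9.95, 6.90 and 10.9 CPM in the IBA libraries. Ent gave 23.9, 9.37 and 25.6 CPM, ET gave 28.1, 17.5 and 26.5 CPM, and LT gave 34.8 and 13.4 CPM. All 3 IBA libraries lay under every SA, ET and LT library, whereas Ent replicate 2 fell within the IBA range. These values rest on 33 to 268 reads, the fewest of them in IBA.

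From SA to IBA, the log2 fold change of Cdkn1a was -1.58 ± 0.43 (SE), with an adjusted p of 0.055, so it did not pass 0.05. Only 81 of the 6324 units had a lower fold change. None of the 7 genes was called in this comparison by edgeR, at 0.001 (0.0158% of all units) or at 0.05 (5.22%), and 1 of 7 had an unadjusted p under 0.05. DESeq2 and limma-voom also called 0 of the 7 at 0.001. With the season as a covariate, the SA to IBA value was -1.76 ± 0.42 and its adjusted p 0.035; 8 of 24 alternatives passed 0.05, with adjusted p from 0.006 to 0.16. From IBA to LT, Cdkn1a rose by 1.38 ± 0.47 at the looser threshold alone (adjusted p = 0.026), and by 2.05 ± 0.60 with the season in the fit (adjusted p = 0.02). LT replicates 1 and 3 differed from each other by more than LT replicate 3 did from the IBA libraries. Over 24 alternatives the IBA to LT value ranged from 0.53 to 2.05 and 19 kept an adjusted p of 0.05 or less. Neither Ent to ET nor ET to LT passed 0.05, and the values of ET and LT averaged 24.0 ± 5.73 CPM (SD, n = 3) and 24.1 ± 15.1 CPM (SD, n = 2).

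Srsf3, a splicing factor gene, is the nearest upstream unit on the strand of Cdkn1a, at a gap of 51.0 kb, and rose by 0.99 ± 0.09 from warm to cold (adjusted p = 1.9e-06). The units were drawn to follow transcription past the ends of genes. The nearest upstream unit is therefore given with its value for each gene, and its part in the result was not tested.

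Cdkn1b lies on the minus strand (Itri4:94841943-94850345) and shares its unit with an unnamed Ensembl gene, so that its reads cannot be separated from those of that gene. Its product p27 holds resting cells out of the cycle. The unit gave 41.0, 23.4 and 34.2 CPM in SA and 39.2, 32.6 and 40.9 CPM in IBA. It gave 54.9, 75.9 and 61.8 CPM in Ent and 69.1, 79.0 and 72.3 CPM in ET. The LT libraries, at 44.1 and 46.1 CPM, lay above every warm library and under every Ent and ET library. The level was therefore highest in Ent and ET, which overlapped each other.

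The 5 states differed for Cdkn1b (adjusted p = 0.00081). Its warm to cold change was 0.71 ± 0.14 (adjusted p = 0.00086), and the 6 warm and 5 cold libraries did not overlap. Both p-values lie just inside the threshold. Over 22 alternatives the change stayed between 0.62 and 0.94, and 10 of 22 called it at 0.001 and 22 of 22 at 0.05. Leaving out any single library other than SA replicate 1, SA replicate 2 or Ent replicate 2 gave an adjusted p between 0.001 and 0.0044. From IBA to Ent the unit rose by 0.77 ± 0.19 at the looser threshold (adjusted p = 0.019), the only one of the 7 genes to do so. All units were called there at 0.0316%, or 16.1% at 0.05, and edgeR, DESeq2 and limma-voom called 0 of the 7 at 0.001, while 2 had an unadjusted p under 0.05. With the season in the fit this rise of Cdkn1b was 0.59 ± 0.22 (adjusted p = 0.11).

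ET to LT gave -0.70 ± 0.22 for Cdkn1b, with an unadjusted p of 0.0068 and an adjusted p of 0.26. The ET and LT libraries did not overlap, yet each state came from its own season. Within the season that LT shared with Ent replicates 1 and 2, the log2 difference of LT from Ent was -0.51, with 2 libraries on each side and no test. The difference of LT from SA replicate 1 in that season was 0.14, against 0.71 from warm to cold over all libraries. The IBA to LT change was 0.26 ± 0.21 (adjusted p = 0.33) and turned to -0.02 with the season as a covariate. From ET to LT, edgeR called 0 of the 7 genes at 0.001 (0% of all units) and at 0.05 (0.269%), 1 of 7 had an unadjusted p under 0.05, and DESeq2 and limma-voom called 0 at 0.001. Borcs5, the upstream neighbour of Cdkn1b at 228.6 kb, changed by 0.09 ± 0.09 from warm to cold (adjusted p = 0.43).

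Per kilobase of unit, the merged unit of Cdkn1b stood above the single-gene unit of Cdkn1a in 4 of 6 warm libraries and 5 of 5 cold libraries. Cdkn1a and Cdkn1b were closest in SA, at 3.77 ± 0.98 and 3.91 ± 1.06 CPM per kb (SD, n = 3), which do not differ beyond their spread. In IBA they stood at 1.26 ± 0.28 and 4.47 ± 0.52 CPM per kb.

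Ccng2 (single-gene unit, Itri14:10463079-10480630, minus strand) encodes cyclin G2, an unconventional cyclin linked to arrest rather than to division, and a known FoxO target. It gave 41.7, 14.9 and 26.0 CPM in SA, 32.4, 25.9 and 29.9 CPM in IBA and 34.7, 41.3 and 38.8 CPM in Ent. ET gave 32.4, 40.3 and 46.9 CPM and LT gave 46.7 and 38.0 CPM. Every LT and Ent library was above every IBA library, while SA replicate 1 reached the level of the cold libraries. From warm to cold it rose by 0.53 ± 0.21, with an adjusted p of 0.043, and 11 of 23 alternatives kept an adjusted p of 0.05 or less (adjusted p from 0.0029 to 0.14). No step between neighbouring states passed either threshold. With the season in the fit its IBA to LT change was 0.05 ± 0.39 in place of 0.53 ± 0.31. Sept11, which encodes a septin, lies 82.2 kb upstream and changed by 0.41 ± 0.18 (adjusted p = 0.062).

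Mdm2 encodes the ubiquitin ligase that limits p53. Its unit (Itri4:47342578-47399721, minus strand) was merged with an unnamed RefSeq locus, and at 57144 nt it was the longest of the 7. Its libraries gave 159, 168 and 156 CPM in SA, 144, 110 and 142 CPM in IBA and 127, 119 and 139 CPM in Ent. ET gave 120, 166 and 132 CPM and LT gave 138 and 125 CPM. The 3 SA libraries were above all others except ET replicate 2. No test of Mdm2 passed either threshold: the adjusted p was 0.27 over the 5 states and 0.42 between warm and cold, where the change was -0.10 ± 0.11. The median of all units was -0.04 in the same comparison, so the change of Mdm2 relative to it was -0.06. Its upstream neighbour, a unit of 5 merged genes that starts with Nup107 and lies 67.6 kb away, rose by 1.30 ± 0.12 (adjusted p = 1.6e-06).

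The GADD45 genes encode small nuclear proteins that activate the MAP3K4 kinase and bind PCNA and p21. Gadd45b and Gadd45g fell in the cold, Gadd45b at the looser threshold alone, and Gadd45a passed neither threshold.

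Gadd45a, the member most often tied to p53, is a single-gene unit on Itri11:80488710-80495682, plus strand. It gave 37.1, 14.9 and 46.9 CPM in SA, 34.1, 64.4 and 64.2 CPM in IBA and 51.6, 59.1 and 113 CPM in Ent. ET gave 46.7, 50.3 and 61.0 CPM and LT gave 58.8 and 85.1 CPM. Every state overlapped its neighbours, and Ent replicate 3 stood highest. The adjusted p was 0.13 over the 5 states and 0.13 for the warm to cold change of 0.53 ± 0.29. Over 23 alternatives this change ranged from 0.36 to 0.76 and 1 passed 0.05. Mier1, the nearest upstream unit, was 583.5 kb away and changed by 0.21 ± 0.09 (adjusted p = 0.044).

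Gadd45b (single-gene unit, Itri2:216354885-216357845, minus strand) is an NF-kB and TGF-beta responsive gene of the liver. Its level was 39.8, 54.7 and 32.2 CPM in SA, 21.3, 26.8 and 22.8 CPM in IBA and 21.6, 20.1 and 21.2 CPM in Ent. ET gave 26.9, 4.32 and 13.4 CPM and LT gave 13.8 and 8.10 CPM. All SA libraries were above all others, and both LT libraries were under every warm and Ent library. In ET the libraries ran from the lowest Gadd45b value of all to one just above the IBA range. The warm to cold change was -1.30 ± 0.35 (adjusted p = 0.0053) and the 5 states together gave an adjusted p of 0.026. All 23 alternatives kept the warm to cold fall at 0.05, with fold changes from -1.67 to -1.08. The 2 that called it at 0.001 were DESeq2 and the fit without ET replicate 1, whose 26.9 CPM made the groups overlap. No single step passed 0.05; SA to IBA gave -0.83 ± 0.44 (adjusted p = 0.3) and IBA to LT -1.11 ± 0.52 (adjusted p = 0.092). Within the season they shared, the log2 difference of LT from Ent was -0.96. Gadd45b had 22 to 271 reads per library. Tmprss9, 30.4 kb upstream, changed by -0.59 ± 0.51 (adjusted p = 0.32).

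Gadd45g (single-gene unit, Itri13:11357341-11361582, plus strand) is induced by cytokines and stress in many tissues. It gave 148, 51.2 and 69.5 CPM in SA, 35.8, 110 and 35.1 CPM in IBA and 124, 81.3 and 122 CPM in Ent. In ET it gave 22.7, 12.8 and 21.2 CPM and in LT 13.0 and 15.3 CPM. The warm and Ent libraries spread widely and overlapped each other, and all 5 cold libraries lay under all of them. From Ent to ET it fell by 2.52 on the log2 scale (SE 0.49, adjusted p = 0.0028), from a mean of 109 to 18.9 CPM. Only 43 of the 6324 units had a lower fold change at this step. It was the only one of the 7 past 0.05 there, against 28.8% of all units. At 0.001 edgeR called 0 of 7, against 2.21% of all units, limma-voom called 0, and DESeq2 called 1, Gadd45g. At an unadjusted p under 0.05 the count was 1.

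Between warm and cold, Gadd45g changed by -2.16 ± 0.37 (adjusted p = 0.00026), and 216 units had a lower value. All 23 alternatives kept it at 0.05 and 20 at 0.001, with fold changes from -2.30 to -1.78. The adjusted p was 0.0032 without LT replicate 1, 0.0024 without LT replicate 3 and 0.0011 in limma-voom. The 5-state test gave 0.0011, just outside the threshold. From IBA to LT it fell by 2.09 on the log2 scale (SE 0.57, adjusted p = 0.0086), and by 2.60 (SE 0.71, adjusted p = 0.014) with the season in the fit. Within the season shared by SA replicate 1, 2 Ent and 2 LT animals, the log2 difference of LT was -3.36 from SA and -2.80 from Ent, with no test. The SA side of this difference was 1 library, at 148 CPM the highest Gadd45g value of all. LT was thus also lower in comparisons without ET, and the part of the season was not tested. From IBA to LT, 2 of the 7 genes passed 0.05 (Cdkn1a higher, Gadd45g lower), against 49.8% of all units; edgeR called 0 at 0.001 (17.4% of all units), DESeq2 called 1 and limma-voom 0, and 2 had an unadjusted p under 0.05. Secisbp2, 201.0 kb upstream, changed by 0.17 ± 0.09 from warm to cold (adjusted p = 0.11).

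**Figure D2:**
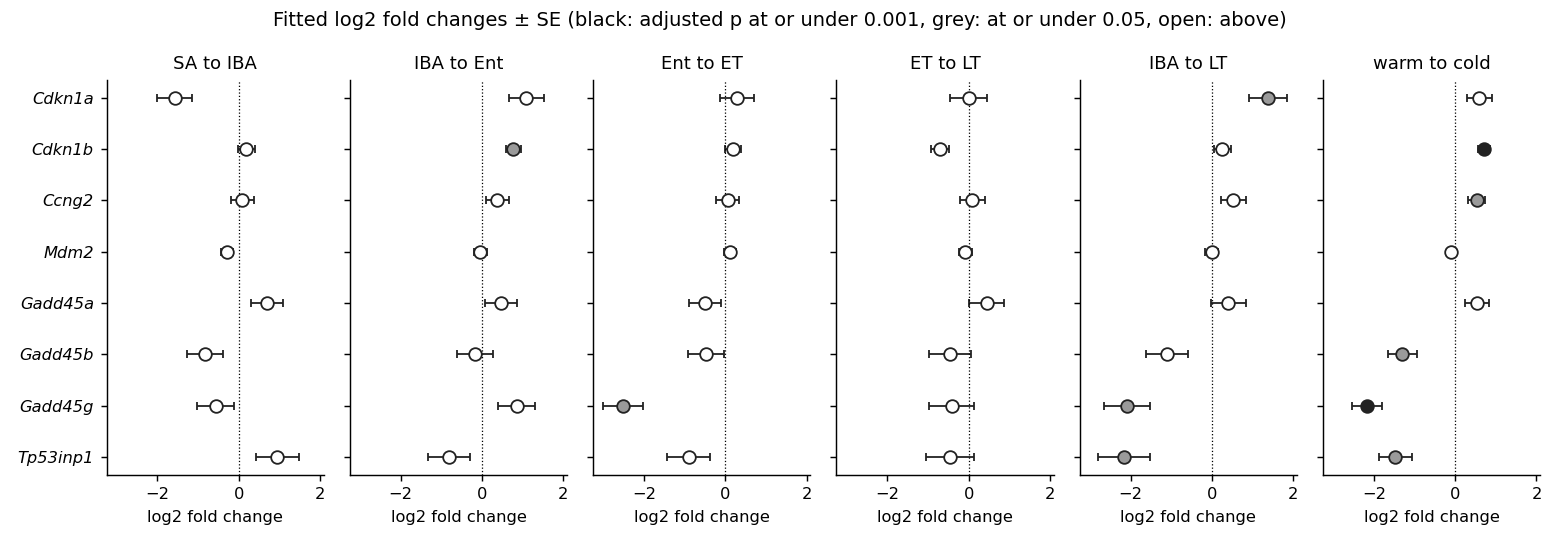
Fitted log2 fold changes (second state minus first) with their standard errors for the 7 genes and Tp53inp1 in 6 comparisons; the fill gives the adjusted p. Only Cdkn1b (0.71) and Gadd45g (-2.16) reached 0.001, both between warm and cold, and no value from SA to IBA or from ET to LT reached 0.05.

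Ratios taken within a library do not depend on how libraries are scaled. Per kilobase, Gadd45g stood above Gadd45a in 5 of 6 warm libraries and 0 of 5 cold ones. The log2 ratio of Gadd45g to Gadd45a averaged 1.43 ± 1.06 (SD, n = 6) in the warm libraries and -1.10 ± 0.56 (SD, n = 5) in the cold ones. The warm libraries ranged from -0.15 to 2.70 and the cold ones from -1.73 to -0.31, so IBA replicate 3 lay within reach of the cold range. Gadd45b to Gadd45a went from 0.90 ± 1.21 to -1.12 ± 1.09, with overlapping ranges. Gadd45g to Gadd45b differed less, from 0.53 ± 0.81 to 0.02 ± 0.71. These ratios were chosen with the values known and are a description, with no test.

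**Figure D3:**
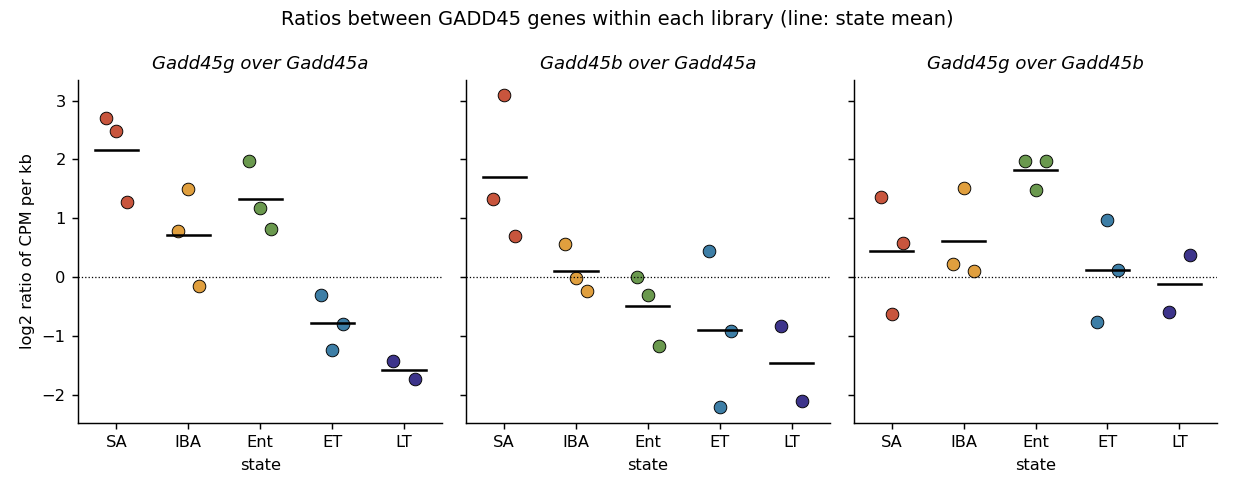
Log2 ratio of CPM per kb between GADD45 genes in every library, by state; points are libraries and lines are state means. Gadd45g over Gadd45a lies above 0 in every SA and Ent library and under 0 in all 5 cold libraries, from -1.73 to -0.31.

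The order of the units of the 7 genes by CPM per kb, with those of Cdkn1b and Mdm2 merged, changed between SA and LT. In SA the highest levels were Gadd45g at 21.1 ± 12.1 and Gadd45b at 14.3 ± 3.87 CPM per kb, which overlapped. Gadd45a (4.73 ± 2.36), Cdkn1b (3.91 ± 1.06), Cdkn1a (3.77 ± 0.98) and Mdm2 (2.82 ± 0.11) followed, each within the spread of its neighbour, and Ccng2 was lowest at 1.57 ± 0.77 CPM per kb (SD, n = 3 each). In LT the highest were Gadd45a at 10.3 ± 2.67 and Cdkn1b at 5.37 ± 0.17 CPM per kb (SD, n = 2 each). Gadd45b (3.69 ± 1.35), Gadd45g (3.34 ± 0.39) and Cdkn1a (3.29 ± 2.06) did not differ beyond their spread, nor did Ccng2 (2.41 ± 0.35) and Mdm2 (2.31 ± 0.16) below them.

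Tp53inp1 (single-gene unit, Itri6:39901536-39914909, plus strand) encodes a p53-induced nuclear protein with roles in autophagy and cell death. Its mean was highest in IBA, at 70.7 ± 32.8 CPM per kb (SD, n = 3), but IBA overlapped SA and Ent. SA to IBA gave 0.95 ± 0.53 (adjusted p = 0.32) and IBA to Ent -0.81 ± 0.52 (adjusted p = 0.31). The libraries gave 835, 328 and 308 CPM in SA, 1441, 609 and 788 CPM in IBA and 884, 188 and 540 CPM in Ent. ET gave 291, 276 and 298 CPM and LT 280 and 141 CPM. All 5 cold libraries were under all 6 warm ones, though Ent replicate 2 was lower than every ET library. From warm to cold it fell by 1.47 on the log2 scale (SE 0.41), with an adjusted p of 0.007, and from IBA to LT by 2.17 (SE 0.64, adjusted p = 0.013). The 5-state test gave an adjusted p of 0.033. Of 23 alternatives, 23 kept the warm to cold fall at 0.05 and 2 called it at 0.001, with fold changes from -1.75 to -1.16. DESeq2 was 1 of these 2, with an adjusted p of 0.00035. Its upstream neighbour was more than a megabase away, at 1018.8 kb, and changed by -0.71 ± 0.14 (adjusted p = 0.00081).

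The surrounding pathway was described from 7 lists of genes, chosen by function and with earlier results of these data known. Single-gene units were present for 43 of their genes, Tp53inp1 included, and 7 of the 43 were called over the 5 states, against 25.5% of all units. Between warm and cold, 9 of the 43 were called higher in the cold, against 18.6% of all units, and 6 were called lower, against 17.6% of all units. Neither share was far from the background. Scaling to uniquely mapped reads in place of TMM moved the proportion of called units that were higher in the cold from 51.3% to 68.5%.

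Among the regulators of p53, 6 of 17 genes had a single-gene unit, with a median change of 0.18. Of these 6, 1 was called higher and 1 lower, against 18.6% and 17.6% of all units. Kat5, the acetyltransferase TIP60 that modifies p53, rose from 18.1 to 26.6 CPM in the warm libraries to 47.0 to 54.8 CPM in the cold ones, a change of 1.17 ± 0.13 (adjusted p = 7.9e-06).

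Of 34 further p53 targets, 12 had a single-gene unit, with a median change of -0.09. Of the 12, 3 were called, all of them higher in the cold, against 18.6% of all units called higher. At an adjusted p of 0.05 a further 4 of the 12 passed, Tp53inp1 among them and all lower, where 64.5% of all units passed in either direction. Perp, a membrane protein of cell junctions and p53-dependent death, rose from 41.8 to 58.3 CPM in the warm libraries to 133 to 155 CPM in the cold ones. This was a change of 1.45 ± 0.11 (adjusted p = 5.6e-07). Tp53inp2, the paralog of Tp53inp1 that acts in autophagy, changed the other way from it, by 1.49 ± 0.17 (adjusted p = 9.3e-06). Tp53inp2 averaged 61.6 ± 7.31 CPM for SA, 26.3 ± 4.19 for IBA, 59.8 ± 11.6 for Ent and 146 ± 36.7 for ET (SD over 3 libraries), and 88.5 ± 29.3 for LT (SD over 2). Its warm and cold ranges met at the edge, with SA reaching 68.8 CPM and the lowest cold library at 67.8 CPM. In merged units, Aen, a p53-induced nuclease, rose by 0.87 ± 0.10 (adjusted p = 7.9e-06) and Sesn1, a sestrin that restrains growth signalling, fell by 0.96 on the log2 scale (SE 0.12, adjusted p = 1.4e-05). Their reads cannot be separated from those of the other genes of their units.

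The list of G1 kinases, their cyclins, inhibitors and associated genes had 3 single-gene units of 19 genes. These were Ccnd3, Cables1 and Cacul1, all named here because they are so few. Of these 3, 2 were called (Ccnd3 and Cables1), both lower in the cold, against 17.6% of all units called lower. The 3 units are too few to speak for the list. Ccnd3, the D-type cyclin that drives G1 kinases, fell by 1.62 on the log2 scale (SE 0.17, adjusted p = 4.8e-06). It averaged 91.6 ± 29.0 CPM for SA, 39.0 ± 3.34 for IBA, 28.1 ± 1.66 for Ent and 21.5 ± 4.52 for ET (SD over 3 libraries), and 17.4 ± 1.79 for LT (SD over 2). SA was the highest state, and SA to IBA alone gave -1.24 ± 0.22 (adjusted p = 0.0063). Fbxo31, which targets D-type cyclins for degradation, lies in a unit merged with an anonymous gene that fell by 2.06 on the log2 scale (SE 0.25, adjusted p = 1.5e-05).

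Pocket proteins and E2F factors, which hold or release S phase genes, had 5 single-gene units of 17 genes, with a median of 0.75. Of these 5, 3 were called, all higher in the cold, against 18.6% of all units called higher. The 5 units are too few to speak for the list. E2f6, a repressive E2F, rose by 0.75 ± 0.08 (adjusted p = 5e-06), from 81.6 to 88.2 CPM in the warm libraries to 120 to 162 CPM in the cold ones. Lin54, the DNA-binding subunit of the DREAM and MuvB complexes, rose by 0.82 ± 0.11 (adjusted p = 4.7e-05). Rbl2, the p130 pocket protein of resting cells, lies in a unit of 4 merged genes that rose by 0.79 ± 0.11 (adjusted p = 3.5e-05).

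FoxO factors and other quiescence genes had 10 single-gene units of 18 genes, with a median of 0.37. Of these 10, 1 was called higher and 3 lower, against 18.6% and 17.6% of all units. Foxo3 encodes a FoxO factor known to induce Cdkn1b and Ccng2 in other systems. It fell by 1.02 on the log2 scale (SE 0.17, adjusted p = 0.00016), from 1263 ± 477 CPM (SD, n = 6) to 592 ± 106 CPM (SD, n = 5). The SA mean was 1679 CPM and the IBA mean 847 CPM, and SA to IBA alone gave -0.99 ± 0.22 (adjusted p = 0.02), while IBA to LT gave -0.58 ± 0.25 (adjusted p = 0.069). Without LT replicate 3 its adjusted p was 0.002. Foxo1, named after its values were seen as the other measured FoxO gene, rose by 1.54 ± 0.24 from warm to cold (adjusted p = 0.00012).

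A list of stress kinases and related genes upstream and downstream of GADD45 had 7 single-gene units of 14 genes, with a median of -0.21. Of these 7, 1 was called between warm and cold, higher in the cold, against 18.6% of all units called higher. Of 23 genes of S phase and mitosis, 0 had a single-gene unit and 3 lay in merged units. Ccnb1, the mitotic cyclin B1, was in one of these, a unit of 3 genes that rose by 0.76 ± 0.09 (adjusted p = 1.5e-05); which of the 3 genes carried the reads cannot be told apart.

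**Figure D4:**
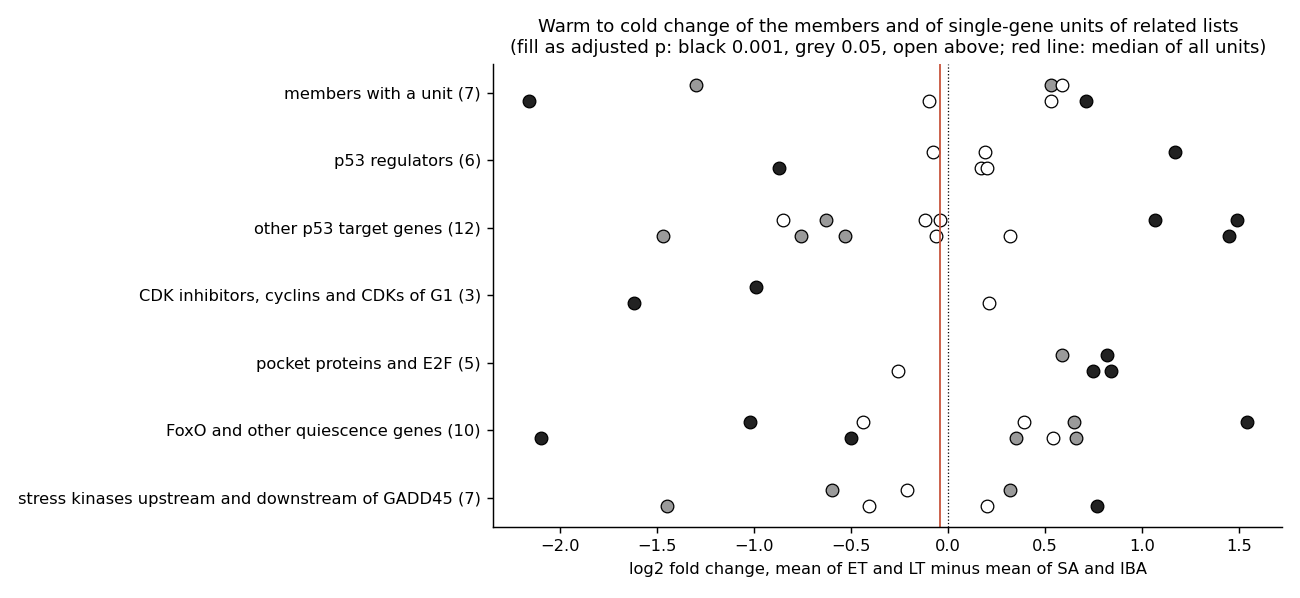
Warm to cold log2 fold change of the 7 genes and of the single-gene units of 6 related lists (number of units in brackets); the fill gives the adjusted p and the red line the median of all units (-0.04). Among the 7 genes, the p53 regulators and the FoxO list, called genes lie on both sides of 0. In the other 4 lists they lie on 1 side, with only 1 to 3 called units each. At 0.05 the other p53 targets had 3 units higher and 4 lower, and the stress kinase list 2 higher and 2 lower. The G1 list (0 higher, 2 lower) and the pocket protein list (4 higher, 0 lower) stayed on 1 side. Called values run from -2.16 to 1.54.

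For the 4 genes with the smallest 5-state p, the units most alike over the 14 libraries were sought among 4396 named single-gene units, by Pearson correlation of log2 CPM. These values are descriptions; the libraries share depth, state and season. Cdkn1b was most like Actr6 (r = 0.92), a subunit of a chromatin remodeller, then Cggbp1 and Bcdin3d (r = 0.90 each). Cggbp1 averaged 63.8 CPM in ET and 24.3 CPM in LT, and Actr6 averaged 76.1 and 67.7 CPM.

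Gadd45g was most like Sox9 (r = 0.94), Pold4 (r = 0.93), a DNA polymerase delta subunit, and Hal (r = 0.92), the histidine-degrading enzyme of the liver. Hal went from 887 CPM in SA and 883 CPM in Ent to 412 CPM in ET and 293 CPM in LT. Sox9 was also the one measured marker of 6 for cholangiocytes, the bile duct cells, and ranged from 25.9 to 41.0 CPM in SA, 16.5 to 36.0 in IBA, 29.8 to 46.1 in Ent, 10.9 to 18.1 in ET and 7.07 to 10.1 in LT. Whether a share of bile duct cells took part in the fall of Gadd45g was not tested.

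Gadd45b was most like Stk32b (r = 0.93), a kinase gene that went from 91.8 CPM in SA to 6.54 CPM in LT, then Ctif (r = 0.91) and Arhgef10l (r = 0.89). Cdkn1a was most like Pi4ka (r = 0.87), Klf13 (r = 0.86) and Dcun1d3 (r = 0.83). All 3 had their lowest mean in IBA, as Cdkn1a did; Klf13, a zinc finger factor, had 231 CPM there against 363 CPM in SA and 397 CPM in LT.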

How the data were processed

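The authors trimmed the GRO-seq reads with cutadapt, aligned them with BWA to HiC_Itri_2 and counted uniquely aligned reads with featureCounts. Units were gene bodies extended with fstitch where transcription ran further, less the first 500 nt, with overlapping genes merged. The deposited values are raw counts per unit and library, not normalized; the strand setting of the counting is not given in the sources used here, so an antisense gene cannot be told apart. LT replicate 2 of the 15 labelled libraries was not analysed here.

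The 14 libraries were fitted with edgeR 4.0.16 (R 4.3.3, TMM, quasi-likelihood) over all 6324 units, without a filter. CPM used TMM library sizes; log2 CPM used a prior count of 2. Warm to cold is the mean of ET and LT minus that of SA and IBA. Steps were tested on simulated data. As alternatives, limma-voom (limma 3.58.1), DESeq2 1.42.0, 4 other scalings, a minimum of 10 counts in every library, single-gene units alone, an adjusted p of 0.05, a replicate block, a season covariate and the omission of each library in turn were run. Seasons and uniquely mapped reads came from the study's animal table. Labels give 1 animal per library.

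The genes and lists were chosen with earlier results of these data known. Named were all 7 genes, per list up to 5 genes with the smallest 5-state p past 0.001, for 4 genes the 3 most alike units, and the nearest upstream unit on the same strand; exceptions are marked. A further gene was left out of the lists and is not reported here. No genome was used, so no sequences are shown.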

Additional observations from a re-analysis of the deposited data

How the results depend on the processing

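The number of the 7 genes called over the 5 states was 1, and became 3 at an adjusted p of 0.05, 2 with DESeq2, 2 with upper-quartile normalization and 0 in a fit of single-gene units alone, which leaves out the merged Cdkn1b. Between warm and cold the 2 calls became 4 at 0.05, 3 with DESeq2, 1 with limma-voom and 1 with single-gene units alone. At 0.05 there was 1 call for IBA to Ent, 1 for Ent to ET and 2 for IBA to LT, in place of 0. DESeq2 gave 1 call for Ent to ET and 1 for IBA to LT. Leaving out 1 library gave 0 to 2 calls over the 5 states and 0 to 2 between warm and cold, 0 without LT replicate 1 or LT replicate 3. The cause of these changes was not tested, apart from the merged unit.

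With the replicate block there were 0 calls over the 5 states and 1 between warm and cold, Gadd45g. Libraries of 1 number did not deviate together: over 26 pairs of the same number the correlation of deviations from the state means ran from -0.26 to 0.23, so numbers do not pair animals.

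Of 1226 alternative values of 53 fold changes of size 0.1 or more, 6 changed sign. Mdm2 from warm to cold was 0.01 with total counts and 0.12 with uniquely mapped reads as library size. The latter moved the median of all units to 0.18, relative to which Mdm2 was at -0.06, and raised the proportion of cold-high units among all called ones from 51.3% to 68.5%. Cdkn1b from IBA to LT was -0.02 with the season as a covariate. With 1 library left out, Cdkn1a from Ent to ET ran from -0.02 (without Ent replicate 2) to 0.53, Mdm2 from Ent to ET from -0.02 (without ET replicate 2) to 0.22, and Gadd45b from ET to LT from -0.89 to 0.28 (without ET replicate 1). Fold changes under 0.1 were not compared. Depth limits the units with few reads, such as Gadd45b and Cdkn1a.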
